A study of Mus musculus with 3 samples.

Results

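The genes described here encode the kinases, adaptors and exchange factors that act directly beneath the T cell receptor. They are 34 named genes, chosen by function with earlier results of these data known. They were matched by Ensembl identifier to their mouse symbols, out of 50600 genes in each table, and all 34 were found. RNA was sequenced from mouse T cells of strain C57BL/6NJ, taken as primary cells, in 3 libraries that form 1 group and are numbered as biological replicates 2, 3 and 4. Per the labels, sex was not collected, age and stage are unknown, and 1 donor identifier covers the 3 libraries. The labels refer to a protocol for differentiating CD4+ T cells, while the alignment names in the file headers carry Th0, activated and 00h. No label states whether the cells had been stimulated. There is no second condition in these data. The comparisons are therefore between paralogs within a library and between libraries.

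Engagement of the T cell receptor leads the Src family kinase Lck, with Fyn, to phosphorylate the receptor's signalling motifs, to which the kinase Zap70 binds. Zap70 then phosphorylates the membrane scaffold Lat and the cytosolic scaffold SLP-76 (Lcp2), on which phospholipase C gamma, Vav, Grb2 family adaptors and Tec kinases assemble. Diacylglycerol from the phospholipase carries the signal to Rasgrp1 and protein kinase C theta. Several of these proteins have paralogs that serve the same step in B cells, mast cells or myeloid cells.

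Replicates 2, 3 and 4 held 47432940, 59698913 and 28340521 counts. The label says T cell and no subset. Of the CD4 αβ T cell genes 8 of 8 were detected, with a summed level between 9314 and 9499 TPM. Of the CD8 T cell genes, Cd8b1 was detected, at 33.6 ± 3.00 TPM, and Cd8a was not, at 0.534 ± 0.182 TPM. Of the 4 NK cell genes Eomes was detected, at 4.50 ± 0.754 TPM. B cell genes were present at a low level, with 8 of 8 detected and a sum between 76.2 and 124 TPM, and of the myeloid genes 4 of 8 were detected (20.9 to 23.8 TPM in sum, Cd14 at 0 counts). Platelet genes were at 0 counts, and none of the 4 mast cell and basophil, 4 dendritic cell, 4 neutrophil or 3 erythroid genes was detected in every library. Replicate 2 stood apart in sex-linked genes, with Xist at 151 TPM, against 0.221 TPM in replicate 3 and 0.399 TPM in replicate 4, while the Y-linked gene Ddx3y was at 0.248, 80.0 and 72.3 TPM in replicates 2, 3 and 4. All 22 paralog differences below kept their sign without replicate 2. Every pair of libraries differed by more than counting noise (chi-square per degree of freedom 9.10 to 17.2), so none was a repeat deposit of another. Each was counted as a sample because the labels number them as biological replicates. The sex-linked values go against reading the single donor identifier as 1 animal. The labels do not say how many animals gave each library, so the spread between libraries may be in part technical and each SD may span animals of both sexes.

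Most of the set was expressed, and much of it at a high level. Levels are in TPM, which divides counts by gene length and brings every library to an equal sum, and detection means 1 TPM or more in all 3 libraries. By that rule 31 of 34 members were detected, against 46.1% of 21764 protein-coding genes and 23.4% of all genes. Because the members were chosen with earlier results of these data known, these shares and those that follow describe the set and test nothing. A mean of 100 TPM or more was reached by 16 members, against 8.42% of protein-coding genes, 9 lay between 10 and 100 TPM, 6 between 1 and 10 TPM, and 3 below 1 TPM. With principal transcript lengths in place of merged exons, 18 members reached 100 TPM, Txk and Tespa1 being added. The median over the 34 members was 67.4 TPM, and over the detected protein-coding genes 33.4 TPM. Together the members took 0.936 ± 0.00823% of all counts (SD, n = 3). The plot of TPM by gene shows that the libraries lay close together for all but the lowest genes. In bulk RNA, fewer cells with a transcript and less transcript per cell cannot be told apart.

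**Figure D1:**
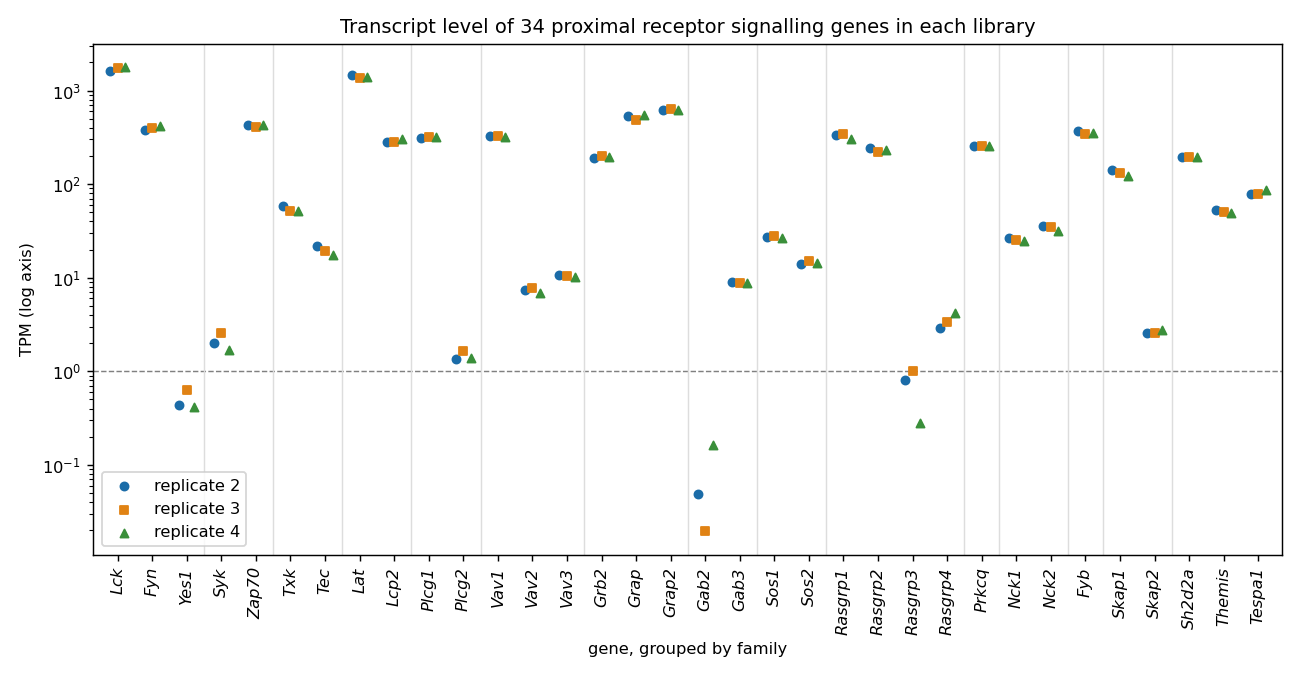
TPM of each of the 34 genes (log axis) in the 3 libraries, grouped by family, with a dashed line at the detection level of 1 TPM. Lck and Lat stand highest in every library, at 1350 TPM or more, while Yes1, Gab2 and Rasgrp3 are the 3 genes not detected in all of them.

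Among the Src kinases, Lck carried most of the transcript. Lck, the kinase bound to the CD4 and CD8 coreceptors (ENSMUSG00000000409.14, mm10 chromosome 4, 129548344 to 129573641, minus strand), was at 1607, 1761 and 1777 TPM in replicates 2, 3 and 4. It ranked 50 among all protein-coding genes by mean TPM. Fyn, the second Src kinase of T cells, was at 382, 394 and 418 TPM in the same order, so every library of Lck lay above every library of Fyn. Yes1, a Src kinase expressed in many tissues, stayed at 0.435, 0.632 and 0.418 TPM, from 147 pooled counts. The difference of Lck over Fyn in log2(TPM + 0.1) was 2.11 ± 0.05 (SD, n = 3), with a length-corrected ratio of pooled counts of 4.33 and a 95% exact binomial interval from 4.29 to 4.37. Against Yes1 the ratio was 3301 (2809 to 3908) for Lck and 762 (648 to 902) for Fyn. Lck made up 81.1 ± 0.475% of the summed TPM of these 3 kinases. Other Src family kinases looked up were low. Blk, a kinase of B cells, was at 2.11 ± 0.729 TPM. Fgr and Lyn, best known in myeloid and B cells, were at 1.58 ± 0.585 and 1.19 ± 0.0360 TPM, and Src itself was at 0.482 ± 0.104 TPM.

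Every paralog difference reported here was tested in the same way, and the design limits all of them alike. The difference of log2(TPM + 0.1) was taken in each library and its sign tested by exact permutation, flipping signs over the libraries and counting both tails, for which 3 libraries allow no p below 0.25. All 22 pairs had the same sign in 3 of 3 libraries, so each had p = 0.25 in that exact test, and 0.25 after Benjamini-Hochberg adjustment over the 22 pairs. No pair could pass 0.05. The pooled ratios and their intervals cover counting error only, and the SD over libraries gives the spread between samples. Mean differences ran between 0.26 and 11.51, with 5 pairs under 1 and 12 over 4.

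**Figure D2:**
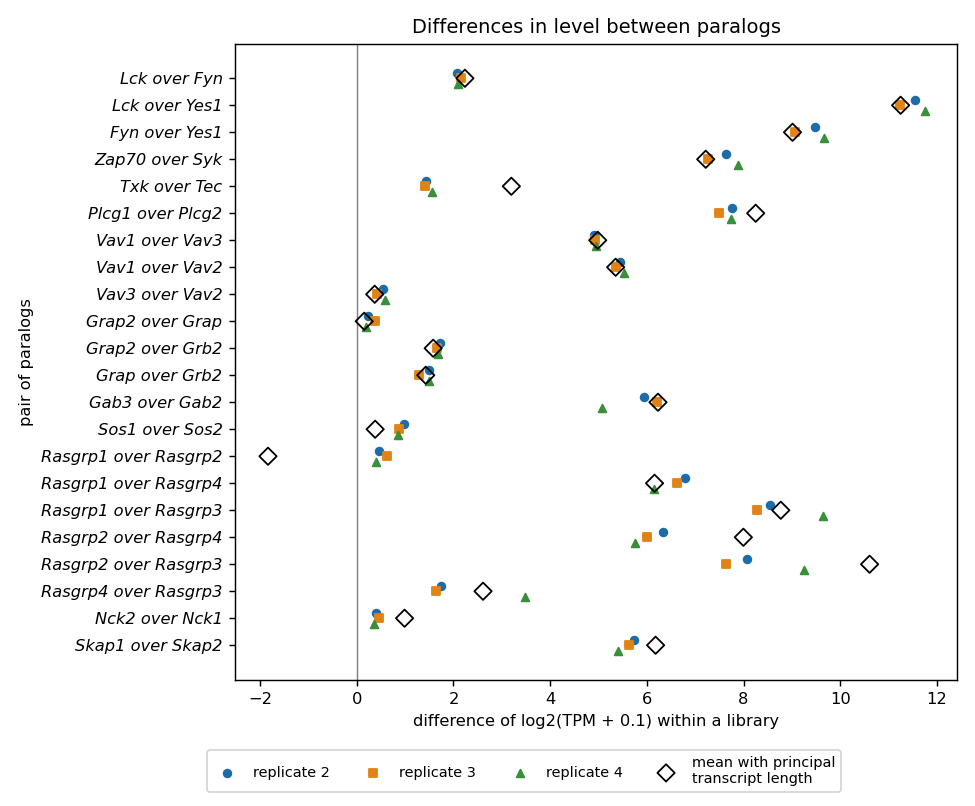
Differences of log2(TPM + 0.1) between paralogs, the higher gene minus the lower, for 22 pairs in the 3 libraries, with open diamonds for the mean when the principal transcript's length replaces the merged exon length. All points for the libraries lie right of 0, and 1 diamond, for Rasgrp1 over Rasgrp2, lies left of it at -1.84. The diamonds keep the merged length of Grap2, whose principal transcript is longer.

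Zap70 and Syk divided in the same manner. Zap70, the kinase that binds the phosphorylated receptor chains in T cells (ENSMUSG00000026117.10, chromosome 1, 36761798 to 36782818, plus strand), was at 424, 410 and 428 TPM in replicates 2, 3 and 4. Syk, its counterpart in B cells and myeloid cells (ENSMUSG00000021457.14, chromosome 13, 52583173 to 52648792, plus strand), was at 2.03, 2.58 and 1.70 TPM. The pooled ratio of Zap70 to Syk was 190 (177 to 204), and Zap70 made up 99.5 ± 0.116% of the pair. Syk was highest in replicate 3 and lowest in replicate 4, as was the summed level of the 8 B cell markers, at 102, 124 and 76.2 TPM in replicates 2, 3 and 4. The part of B cells in the Syk level was not tested.

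The promoter sequences of these kinases are shown because the pairs differ in CpG content, a property of the sequence that the choice of genes did not use. Each runs from 250 bases before to 50 bases after a RefSeq start (GRCm38.p6, the assembly of mm10), on the gene's strand, with every CpG in capitals. Lck has a pair of RefSeq starts, and as background it is known for a proximal promoter active in thymocytes and a distal one active in mature T cells. Counts per gene do not tell which start was used. For Zap70 and Syk the start of the highest CpG content is shown. For Zap70 that is an internal start, nearer the end of the gene (36782818) than its beginning (36761798). The Zap70 window at the beginning of the gene, 36761548 to 36761847, is not shown and had a CpG ratio of 0.341.
Lck downstream start, chr4:129558323-129558622, minus strand: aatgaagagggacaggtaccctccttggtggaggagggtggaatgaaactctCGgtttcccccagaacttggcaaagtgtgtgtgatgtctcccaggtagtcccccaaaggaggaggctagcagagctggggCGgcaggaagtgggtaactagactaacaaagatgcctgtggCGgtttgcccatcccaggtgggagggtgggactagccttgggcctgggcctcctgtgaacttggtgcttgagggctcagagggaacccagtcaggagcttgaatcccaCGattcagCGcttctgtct
Lck upstream start, chr4:129573592-129573891, minus strand: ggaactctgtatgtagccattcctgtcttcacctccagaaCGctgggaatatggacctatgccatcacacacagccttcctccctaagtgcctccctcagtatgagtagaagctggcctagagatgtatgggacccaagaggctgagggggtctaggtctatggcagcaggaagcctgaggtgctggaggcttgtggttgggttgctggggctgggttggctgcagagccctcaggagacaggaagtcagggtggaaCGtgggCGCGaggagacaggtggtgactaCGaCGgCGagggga
Yes1, chr5:32610921-32611220, plus strand: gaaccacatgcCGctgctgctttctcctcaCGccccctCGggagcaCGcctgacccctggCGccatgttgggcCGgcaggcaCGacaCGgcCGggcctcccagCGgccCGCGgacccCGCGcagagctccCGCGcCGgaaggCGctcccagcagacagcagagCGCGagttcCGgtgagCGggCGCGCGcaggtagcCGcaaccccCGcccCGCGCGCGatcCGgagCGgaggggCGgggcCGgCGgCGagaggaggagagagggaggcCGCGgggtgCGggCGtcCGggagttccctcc
Zap70, chr1:36778734-36779033, plus strand: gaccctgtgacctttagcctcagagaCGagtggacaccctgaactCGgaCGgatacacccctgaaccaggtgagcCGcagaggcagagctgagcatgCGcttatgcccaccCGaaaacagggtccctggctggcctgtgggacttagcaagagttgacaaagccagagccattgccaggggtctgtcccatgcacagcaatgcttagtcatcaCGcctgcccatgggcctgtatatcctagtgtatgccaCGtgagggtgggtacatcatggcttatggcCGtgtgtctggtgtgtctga
Syk, chr13:52583187-52583486, plus strand: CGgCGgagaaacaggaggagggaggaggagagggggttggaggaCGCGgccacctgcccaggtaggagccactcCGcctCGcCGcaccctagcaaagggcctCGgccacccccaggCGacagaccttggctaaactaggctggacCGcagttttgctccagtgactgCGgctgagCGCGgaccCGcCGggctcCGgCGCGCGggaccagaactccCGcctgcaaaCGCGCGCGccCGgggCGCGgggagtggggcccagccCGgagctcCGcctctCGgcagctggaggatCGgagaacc
Both Lck windows were poor in CpG, with 5 and 7 CpG and an observed to expected ratio of 0.211 and 0.289, and that of Zap70, with 9 CpG, stood at 0.366. The window of Yes1 held 42 CpG (ratio 0.945) and that of Syk 31 (ratio 0.800). In both families shown, the most abundant kinase had the CpG-poor window and its scarce paralog a CpG-rich one. Fyn, at a ratio of 0.891, was abundant and CpG-rich. These pairs were shown because they differ in CpG content, and other families varied. By each gene's highest window, Txk was CpG-poor and its lower paralog Tec CpG-rich. Plcg1 and Plcg2, Sos1 and Sos2, and Nck1 and Nck2 were all CpG-rich, while Grap2 and Grb2 were both CpG-poor. Both Grb2 windows lie inside the gene and none at its annotated start, so its class describes internal starts. Rasgrp1 was CpG-rich (0.878) and the scarce Rasgrp3 CpG-poor (0.434). Vav1 and the scarcer Vav2 were CpG-poor, and Vav3 was CpG-rich. The ETS letters GGAAGT, searched on both strands, occurred in both Lck windows, at -113 and -9 relative to the start, and not in the Yes1 window or in the Zap70 and Syk windows shown. Zap70 has 3 windows and Syk 2, and a Zap70 window not shown held both GGAAGT and TGTGGT, while the other Syk window held GGAAGT and had a CpG ratio of 0.123. The RUNX letters TGTGGT occurred in the upstream Lck window, at -58 and clear of the ETS letters, and in the Yes1 window, at -248. Over all 39 promoter windows of members, 35.9% held GGAAGT and 15.4% TGTGGT, against 23.8% and 16.8% of 32851 windows of the same length in the RefSeq table. A match of letters is a description and no sign of binding.

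Promoter windows were given for 27 of the 34 members, all but Grap, Gab2, Gab3, Rasgrp4, Skap1, Sh2d2a and Tespa1. Taking each gene's highest window, 15 of the 27 had a CpG ratio of 0.6 or more. Among the detected members with a window it was 14 of 25, or 56.0%, against 80.0% of 8045 detected protein-coding genes. Of the 13 members with a window and a mean of 100 TPM or more, 8 were CpG-poor (Lck, Lat, Grap2, Zap70, Fyb, Vav1, Lcp2 and Grb2) and 5 CpG-rich (Fyn, Rasgrp1, Plcg1, Prkcq and Rasgrp2). Among 1467 detected protein-coding genes at that level, 19.6% were CpG-poor. The Grb2 windows, from 115699485 and from 115699879 on chromosome 11, lie inside the gene. Its annotated start, at 115708597 on the minus strand, has no window, so the CpG content there is not given. The median level of detected members was 26.3 TPM with a CpG-rich window and 323 TPM without one, and over all detected protein-coding genes the order was the opposite, at 36.1 and 21.1 TPM. Across the 27 members the Spearman correlation of CpG ratio with TPM was -0.39, a description over genes that share libraries and were chosen by function. No test was made of these shares.

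**Figure D3:**
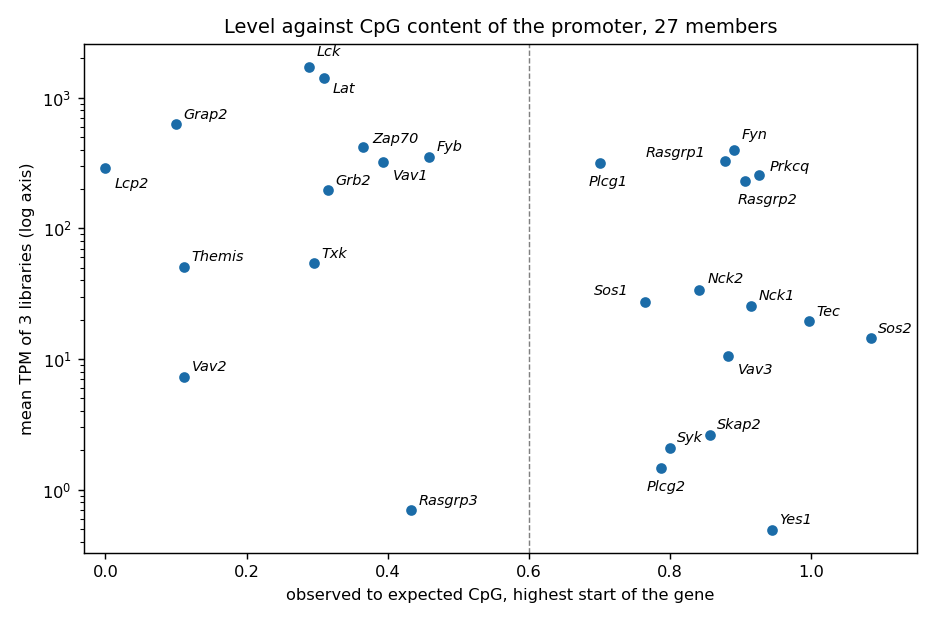
Mean TPM over the 3 libraries (log axis) against the observed to expected CpG ratio of the gene's highest promoter window, for 27 members, with a dashed line at 0.6. The 12 genes left of the line run between 0.699 and 1715 TPM and include Lck and Lat, and the 15 genes right of it run between 0.495 and 398 TPM.

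The Tec kinases phosphorylate phospholipase C gamma. Txk, also called Rlk, was at 59.1, 51.4 and 52.1 TPM in replicates 2, 3 and 4, and Tec at 21.8, 19.1 and 17.7 TPM, both highest in replicate 2. The pooled ratio of Txk to Tec was 2.74 (2.64 to 2.85), and their log2 difference was 1.47 ± 0.07 (SD, n = 3). That value depended on the length used for Txk, whose merged exons span 10955 bases while its principal transcript has 2344. With the length of the principal transcript the difference was 3.20. Outside the members, Btk, the Tec kinase of B cells, was at 1.12 ± 0.174 TPM and Bmx had 0 counts.

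Lat and Lcp2, the scaffolds, were both abundant. Lat, the membrane scaffold whose tyrosines recruit phospholipase C gamma and Grb2 (ENSMUSG00000030742.7, chromosome 7, 126363824 to 126369570, minus strand), was at 1466, 1350 and 1402 TPM in replicates 2, 3 and 4. It ranked second among the members, after Lck. With principal transcript lengths the order turned, with Lat at 2162 TPM and Lck at 1578 TPM. Lcp2, which encodes SLP-76, was at 283, 284 and 302 TPM. Of the related scaffolds, Lat2 was at 2.31 ± 0.410 TPM and the SLP family genes Blnk, the scaffold of B cells, and Clnk at 0.557 ± 0.160 and 0.118 ± 0.145 TPM. In replicates 2, 3 and 4 Blnk was at 0.520, 0.732 and 0.419 TPM, in the order of the B cell sum. Other genes best known in B cells had other orders, with Blk at 2.58, 2.48 and 1.27 TPM and Btk at 1.30, 0.954 and 1.12 TPM.

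Phospholipase C gamma and Vav each had 1 abundant gene. Plcg1, the isoform that cleaves membrane lipid in T cells, was at 314, 319 and 323 TPM in replicates 2, 3 and 4, and Plcg2, the isoform of B cells and myeloid cells, at 1.34, 1.66 and 1.40 TPM. Their pooled ratio was 213 (187 to 242). Vav1, the blood cell form of this family of exchange factors, was at 325, 325 and 319 TPM. The broadly expressed Vav2 and Vav3 followed at 7.34, 7.82 and 6.82 TPM and at 10.7, 10.6 and 10.2 TPM. Vav1 made up 94.8 ± 0.142% of the summed TPM of the 3 Vav genes and exceeded Vav3 by a pooled ratio of 30.7 (29.5 to 32.0). Vav3 lay above Vav2 in each library by a smaller margin, with a pooled ratio of 1.42 (1.33 to 1.51) and a log2 difference of 0.52 ± 0.08.

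The Grb2 family was the one in which all members were abundant. Grap2, which encodes Gads, the adaptor that links Lat to SLP-76 (ENSMUSG00000042351.8, chromosome 15, 80623505 to 80650559, plus strand), was at 627, 633 and 625 TPM in replicates 2, 3 and 4. Grap, a lymphocyte relative of Grb2, was at 535, 490 and 546 TPM, and Grb2, which couples receptors to Sos in most cells, at 189, 201 and 195 TPM. No library of Grap reached the lowest of Grap2, and none of Grb2 the lowest of Grap. Grap2 exceeded Grap by 0.26 ± 0.09 on the log2 scale, the smallest difference of the 22, with a pooled ratio of 1.21 (1.20 to 1.23), and exceeded Grb2 by 1.69 ± 0.04. Their shares of the summed TPM were 46.6 ± 1.04%, 38.9 ± 1.61% and 14.5 ± 0.635% for Grap2, Grap and Grb2. With principal transcript lengths the log2 difference of Grap2 over Grap was 0.15. Grap2 kept its merged length of 3158 bases there, because its principal transcript, of 5475 bases, is longer. Divided by 5475 bases, the 75051 pooled counts of Grap2 would lie below the 35083 of Grap divided by its principal transcript of 1662 bases. Those counts were taken over the merged exons only, so the order of Grap2 and Grap could not be settled.

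Of the Gab scaffolds, Gab3 was low and Gab2 was near the counting floor. Gab3, best known in macrophages, was at 9.08, 8.74 and 8.74 TPM in replicates 2, 3 and 4. Gab2, a docking protein of mast cells and other blood cells, had 4, 2 and 8 counts in those libraries, or 0.0492, 0.0195 and 0.163 TPM, where 3 pooled counts amount to 0.0129 TPM. Their pooled ratio was 147, with a wide interval from 87.5 to 270, and Gab1 had 0 counts.

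The Ras exchange factors divided between 2 Rasgrp genes that were abundant and 2 that were not. Rasgrp1, the diacylglycerol-activated Ras exchange factor of T cells (ENSMUSG00000027347.18, chromosome 2, 117279993 to 117343001, minus strand), was at 337, 344 and 302 TPM in replicates 2, 3 and 4. Rasgrp2, an exchange factor for Rap1 that regulates integrins (ENSMUSG00000032946.16, chromosome 19, 6399340 to 6415216, plus strand), was at 244, 222 and 231 TPM. Every library of Rasgrp1 lay above every library of Rasgrp2, by 0.49 ± 0.12 on the log2 scale and a pooled ratio of 1.44 (1.42 to 1.45). The order turned with the length used, because the merged exons of Rasgrp2 span 12384 bases over 24 annotated transcripts and its principal transcript has 2296. Rasgrp2 had more counts than Rasgrp1, with 108386 against 70391 pooled. Without length correction the log2 difference of Rasgrp1 over Rasgrp2 was -0.65, and with principal transcript lengths it was -1.84, at means of 241 TPM for Rasgrp1 and 860 TPM for Rasgrp2. Which of the 2 was more abundant therefore could not be settled from counts per gene.

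Rasgrp4, known from mast cells and neutrophils, was at 2.94, 3.38 and 4.16 TPM in replicates 2, 3 and 4. The 4 mast cell and basophil markers summed to between 0.0985 and 0.232 TPM, with Fcer1a at 0 counts. The 4 neutrophil markers summed to 0.691, 1.18 and 2.24 TPM in replicates 2, 3 and 4, the order of Rasgrp4, with Ly6g at 0 counts. Those sums rest on few counts from libraries of unlike depth. S100a9 had 4, 8 and 5 counts, S100a8 had 1, 3 and 3, and Camp had 0, 0 and 3. The part of neutrophils in the Rasgrp4 level was not tested. Exons of Rasgrp4 share 18.2% of their bases with genes on the other strand, which strand-aware counting keeps apart. Rasgrp3, known from B cells, was at 0.802, 1.01 and 0.280 TPM, from 52, 83 and 11 counts, and was lowest in replicate 4, as was the B cell sum. The part of B cells in that difference was not tested. The Sos genes, which encode the Ras exchange factors bound by Grb2, were both of middle rank. Sos1 was at 27.3, 27.7 and 26.3 TPM and Sos2 at 13.9, 15.1 and 14.5 TPM, a pooled ratio of 1.87 (1.81 to 1.94). With principal transcript lengths their log2 difference fell to 0.38, against 0.90 ± 0.06 with merged exons.

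**Figure D4:**
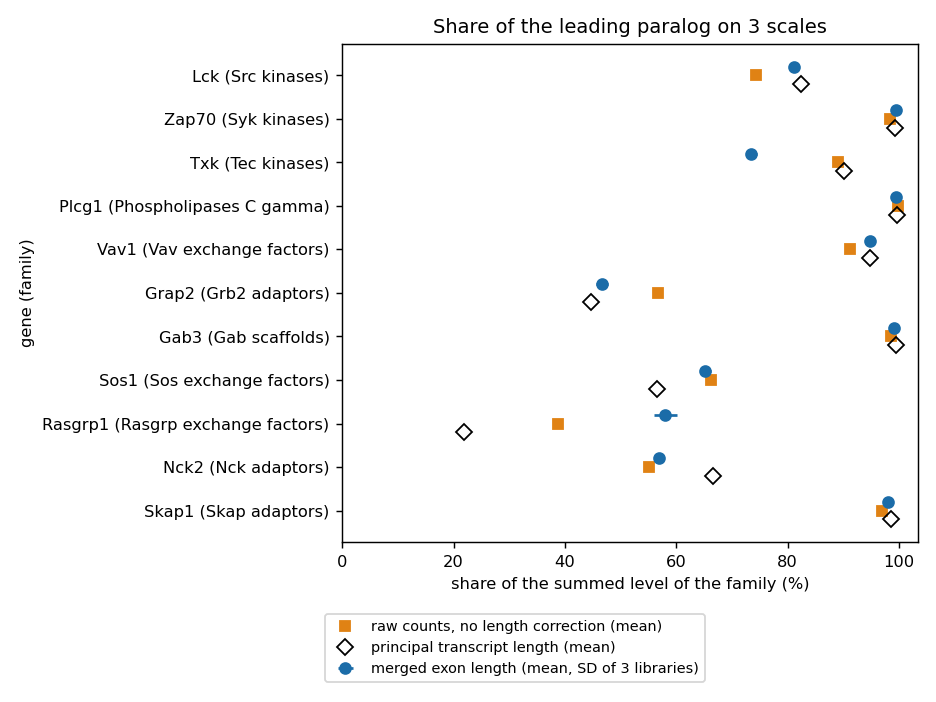
Share of the leading paralog in the summed level of its family (percent) in 11 families, on merged exon length (filled circles with SD over 3 libraries), raw counts (squares) and principal transcript length (open diamonds). The leading gene holds over 90% in 5 families on all 3 scales, while the share of Rasgrp1 is 58.1% on merged exons, 38.7% of raw counts and 21.8% with principal transcript length.

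Protein kinase C theta and the adaptors that join the receptor to the cytoskeleton and to integrins were also well expressed. Prkcq, the kinase that links diacylglycerol to NF-κB in T cells, was at 257, 257 and 254 TPM in replicates 2, 3 and 4. Its coefficient of variation was 0.575%, the lowest of the 34. The counting interval of its pooled counts was of similar width, from 255 to 258 TPM, so that value does not mark Prkcq as more stable. Of the other protein kinase C genes looked up, Prkch was at 251 ± 23.1 TPM and the rest between 11.8 ± 0.726 TPM for Prkce and 60.9 ± 0.745 TPM for Prkcd.

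Nck1 and Nck2, adaptors that bind the receptor and regulators of actin, were of similar level on merged exons. Nck2 was at 35.3, 34.5 and 31.7 TPM and Nck1 at 26.9, 25.1 and 24.6 TPM in replicates 2, 3 and 4. They did not overlap, with a pooled ratio of 1.33 (1.28 to 1.39). With principal transcript lengths Nck2 averaged 37.3 TPM and Nck1 18.8 TPM, a log2 difference of 0.99, against 0.40 ± 0.05 with merged exons. Fyb, which encodes the integrin adaptor ADAP, was at 367, 346 and 351 TPM. Its exons share 4.45% of their bases with the pseudogene Gm7666 on the same strand, the largest such overlap of the 34, where reads could be lost. Skap1, the partner of ADAP in T cells, was at 142, 132 and 122 TPM, and Skap2, its relative in other blood cells, at 2.55, 2.56 and 2.77 TPM, a pooled ratio of 51.1 (48.1 to 54.3). With its principal transcript of 1507 bases in place of merged exons of 7462, Skap1 stood at 447 TPM, while Skap2 stood at 6.06 TPM, and their log2 difference was 6.18, against 5.59 ± 0.17 with merged exons.

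The remaining adaptors, with no paralog among the members, averaged between 50.9 TPM for Themis and 195 TPM for Sh2d2a on merged exons. Sh2d2a, which encodes the Lck-binding adaptor TSAd, was at 195, 196 and 193 TPM in replicates 2, 3 and 4. Tespa1, needed with Themis for thymocytes to be positively selected, was at 77.6, 77.8 and 86.3 TPM, and Themis at 52.7, 50.3 and 49.8 TPM. With principal transcript lengths Tespa1 averaged 209 TPM, above Sh2d2a at 177 TPM, and Themis 80.3 TPM. Relatives of single members, Fyb among them, from the list looked up were at 61.7 ± 4.98 TPM for Hsh2d, 1.30 ± 0.159 TPM for Themis2 and 0 counts for Fyb2. Over the 31 other genes of the pathway looked up, 23 were detected. Of these genes, 20 are relatives of members, of which 12 were detected. The other 11, further adaptors and genes of the NF-κB and actin branches, were all detected. On merged exons they lay between 17.9 ± 0.908 TPM for Sh3bp2 and 362 ± 12.9 TPM for Trat1. The place of Trat1 depends on the length used, as its merged exons span 684 bases and its principal transcript 4665. Next below it was Was, at 326 ± 6.85 TPM.

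No member was called as varying among the libraries more than genes of like abundance, and few genes of any kind were. The dispersion trend of that test is fitted to these same libraries. It can therefore call only genes that stand out from the usual spread, and few calls do not mean that the libraries were alike. Of the 33 with a mean count of 10 or more, 0 were called by the goodness of fit in edgeR (adjusted p threshold 0.05), where 0.533% of the 13498 genes tested passed. At an unadjusted p under 0.05 it was 1 of the 33, Rasgrp3, with a range of 1.71 in log2 CPM (edgeR goodness of fit, adjusted p = 0.840), and 4.10% of all genes tested. Each library was also compared with the other 2. The lone library is assumed there to vary like the others and its own spread cannot be estimated, so only effect sizes are given. Among the members tested the largest log2 difference was that of Rasgrp3 in replicate 4, at -1.65 both by edgeR's quasi-likelihood fit and by DESeq2. Rasgrp3 was the only member called under any alternative, with a common dispersion in place of a trend. The median range over the 33 was 0.14 in log2 CPM, against 0.19 over all genes tested, and 15 of the 33 had a range above the median of genes of like abundance. Next to Rasgrp3 came Syk, with a range of 0.56, and Rasgrp4, with 0.55, which was highest in replicate 4 while Syk and Rasgrp3 were lowest there. The smallest range was that of Vav3, at 0.02. Detected members had a median coefficient of variation of 4.63%, and detected protein-coding genes one of 5.46%.

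**Figure D5:**
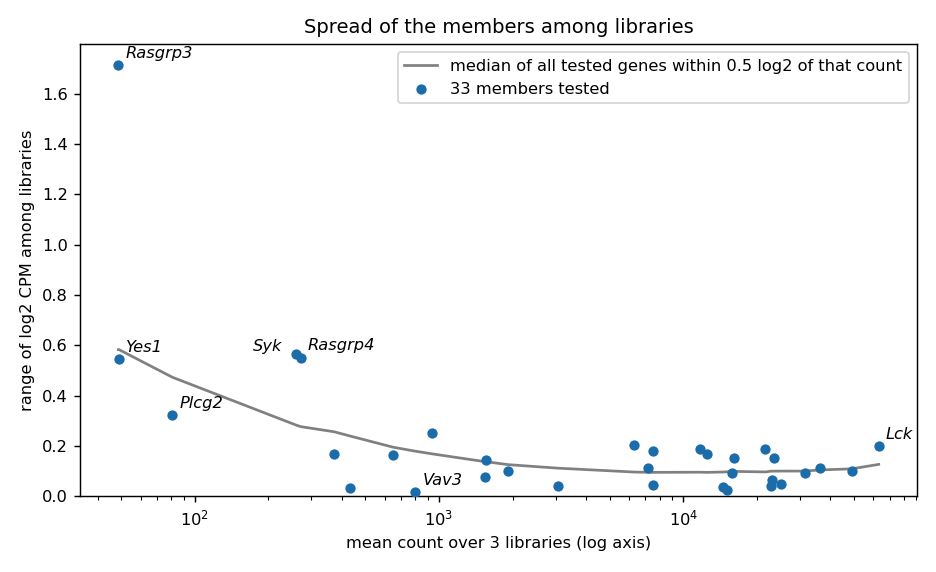
Range of log2 CPM among the 3 libraries against the mean count (log axis) for the 33 members tested, with the median range of all tested genes of like abundance as a line. Rasgrp3 lies highest at 1.71, while Lck, the most abundant, lies at 0.20 and Vav3 lowest at 0.02.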

How the data were processed

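Libraries of RNA from T cells of 1 group, biological replicates 2, 3 and 4, were analysed from tables of deposited counts. Per the file headers, the authors counted read pairs with both ends mapped over exons with featureCounts v1.4.6-p4, strand-aware (reverse), on GENCODE M13, and per the labels the assembly was mm10. The labels title the assay total RNA-seq and cite a poly(A)+ library protocol. No source used here gives the aligner's settings. Counts were not normalized by the authors.

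TPM was computed here from these counts and the deposited merged exon length. Principal transcript lengths came from a later GENCODE release and were capped at the merged length, which among the members concerned Grap2. Symbols were matched for 50376 of 50600 identifiers. Levels were compared between paralogs within each library on log2(TPM + 0.1), with an exact sign-flip test adjusted over 22 pairs. Variation among libraries was tested in the 13498 genes whose mean count reached 10 by edgeR 4.0.16 goodness of fit (TMM, trended dispersion, Benjamini-Hochberg at 0.05), with DESeq2 1.42.0 as an alternative, in R 4.3.3. Scripts were tested on simulated data. Intervals and floors (3 counts) cover counting error only. Promoters came from RefSeq (GRCm38.p6).

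All 34 members are named, other genes only from a list of 31 pathway genes and from marker lists. The members and lists were chosen with earlier results of these data known. Alternatives were other thresholds, scalings, lengths and dispersions, and each library left out in turn. Some genes of that list are not reported here.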

Additional observations from a re-analysis of the deposited data

How the results depend on the processing

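The order of Rasgrp1 and Rasgrp2 reversed with the length used: the log2 difference was -0.65 with no length correction and -1.84 with principal transcript length, an alternative chosen after seeing the data, as was the CpG threshold, under which 15 members were CpG-rich at 0.5, 0.6 and 0.7. The other 21 pairs kept their sign under both, with Grap2 at its merged length, under pseudocounts of 0.01 and 1, and without each library. For Grap2 the principal transcript, of 5475 bases, is longer than the merged exons, of 3158, and the merged length was kept. Its pairs and its share were therefore not computed at 5475 bases, where its counts per base would lie below those of Grap. Shares of raw counts were 74.3% for Lck, 98.5% for Zap70, 89.0% for Txk, 99.7% for Plcg1, 91.3% for Vav1, 56.8% for Grap2, 66.2% for Sos1, 38.7% for Rasgrp1, 55.2% for Nck2 and 97.0% for Skap1. With principal transcript length they were 82.5% for Lck, 99.3% for Zap70, 90.2% for Txk, 99.7% for Plcg1, 44.8% for Grap2, 56.6% for Sos1, 21.8% for Rasgrp1, 66.5% for Nck2 and 98.7% for Skap1. The number of all genes called as varying was 72, and 312 with a common dispersion, under which 1 member, Rasgrp3, was called. Leaving out a library gave between 35 and 46 genes. Each library against the other 2, where the lone library is assumed to vary like the others, gave 142, 10 and 12 genes by edgeR's quasi-likelihood test and 42, 7 and 9 by DESeq2 for replicates 2, 3 and 4. The members' median range was 0.128 on total counts, 0.145 with no count minimum and 0.113 with a mean count of 50 or more, and between 0.0685 and 0.0927 with 2 libraries, where a range spans fewer samples. Detection held for 31 members at 0.5 TPM, 29 at 2 TPM, 27 at 5 TPM and 30 with principal transcript length. Depth limits Gab2, Yes1 and Rasgrp3, with 14, 147 and 146 pooled counts. No paired analysis was possible because the libraries form 1 group, so replicate numbers pair no samples across groups. Only paralogs were paired, within each library. Principal transcript length moved 7 members' TPM by over 1.5 times and put Lat above Lck.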
